A study of Mus musculus with 18 samples.

Results

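The 43 genes described here copy the genome or prepare a cell to do so. They were chosen by gene name. The list runs from origin licensing through the replicative helicase, the polymerases, the sliding clamp and nucleotide supply to regulators of S phase. No measured value served as a rule for the choice, but earlier results of these data were known when it was made. All 43 were found among the 16383 genes of the deposited table, each on a single row, and all 43 were among the 12931 genes that passed the filter on low values, so that no member is missing from any count below.

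DNA replication begins in G1, when the origin recognition complex with Cdc6 and Cdt1 loads the ring-shaped Mcm2-7 helicase onto DNA in an inactive form, a step called licensing. In S phase Mcm10, Cdc45 and the GINS complex turn that ring into a working helicase, polymerase alpha with primase lays down primers, and polymerases delta and epsilon extend them while held on DNA by the Pcna clamp. Most of these genes are transcribed late in G1 by E2F factors once cyclin-dependent kinases release E2F from the RB proteins, which is why their messages are widely read as a sign of cycling cells, pancreatic tumour cells included.

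The RNA came from 6 mouse pancreatic ductal adenocarcinoma lines grown from metastases, lines 42-3 and 6-2 from the lung and lines 42-2, G45-2, 6-3 and 13-2 from the liver. Each was infected with lentivirus carrying Gstt1 shRNA 1 (6 libraries), Gstt1 shRNA 2 (4 libraries) or a non-targeting (NT) hairpin (8 libraries), kept under puromycin for 48 h and collected after one more passage. Gstt1 encodes a glutathione transferase of the theta class. The labels give the tumours of all lines a KrasL/+ allele, a p53F/+ allele and Cre driven from p48 (Ptf1a), a promoter of the pancreatic lineage, and give a SIRT6F/F genotype to every line but 13-2, so all groups, NT controls included, carry these alleles. Each knockdown library was set against an NT control of its own line, and a line's control with the knockdown libraries that go with it is called a culture set. Of the 8 culture sets, 3 come from the lung and 5 from the liver. For lines 42-3 and 42-2, which have 2 sets each (first and second), library codes in the labels tell the sets apart. G45-2 and 6-3 received both hairpins, 4 sets (first 42-3, 6-2, first 42-2 and 13-2) only shRNA 1, and 2 sets (second 42-3 and second 42-2) only shRNA 2. Nothing in the labels says that the 2 sets of a line were grown separately. The knockdown tests below count them as separate sets, so their error is that between libraries, and part of it may be technical. The test of lung against liver NT controls was made on line means, so its error is that between lines. Library depth was 8411436 to 25552912 reads, and 3 reads in a library correspond to 0.117 to 0.357 CPM (reads of a gene per 1000000 reads of the library), the unit of the deposited values.

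The libraries of some sets differ in transcripts used here to mark a line. Xist, the Y-linked genes Uty, Kdm5d, Ddx3y and Eif2s3y, and Cdkn2a and Cdkn2b served as 7 identity transcripts. In 5 of 8 sets, 2 or more of them reached 10 CPM in one library and were 10-fold or more below that in the other, namely both sets of 42-3, 6-2, first 42-2 and 13-2. In first 42-2 and 13-2 these were Cdkn2a and Cdkn2b alone, with no Y-linked gene or Xist at that limit. With a limit of 1 CPM, Ddx3y and Uty also differed in first 42-2, and second 42-2 met the rule by its Y-linked genes. G45-2 differed in 1 of the transcripts, Kdm5d, at both limits. Ddx3y, for example, was at 0 CPM in the shRNA 1 library of the first 42-3 set, against 222 CPM in its NT control. All 3 lung sets are among these 5, so results are given below with and without them. Gstt1 in the shRNA 1 library was 0.938% of the own NT control in first 42-3, 0.683% in 6-2, 13.99% in first 42-2, 54.5% in G45-2, 75.4% in 6-3 and 1.16% in 13-2. In the shRNA 2 library it was 0.613% in second 42-3, 11.2% in second 42-2, 11.8% in G45-2 and 0.982% in 6-3. Over all sets the fitted log2(CPM + 1) difference of Gstt1 was -3.27 (SE 0.67, limma adjusted p = 0.0820). Line 42-2 had little Gstt1 to lose, with 2.67 and 0.616 CPM in its NT controls. The 8 of 8 ductal epithelial markers, such as Krt8, Krt19 and Epcam, were present, and their sum was 377 to 7746 CPM (median 4408) in knockdown libraries and 540.4 to 15185 CPM (median 9991) in NT controls. The summed level of 7 fibroblast markers found of 9 was 4.08 to 6452 CPM (median 249.7) in knockdown libraries and 5.79 to 2917 CPM (median 93.3) in NT controls. Of 7 macrophage and leukocyte markers 4 were present, with sums of 1.53 to 14.1 CPM in knockdown libraries and 3.76 to 16.6 CPM in NT controls. The part of these markers in the results below was not tested.

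The median over the replication genes was higher after Gstt1 knockdown in 6 of 8 sets and lower in both sets of the lung line 42-3. To put all members on one scale, the level of a library was taken as the median over the 43 members of log2(CPM + 1) less the gene's mean over the 18 libraries. This level was -0.63 to 0.89 (median 0.48) in the 10 knockdown libraries and -1.25 to 0.36 (median -0.071) in the 8 NT controls, a mean of 0.28 ± 0.48 (SD, n = 10) against -0.33 ± 0.65 (SD, n = 8), and the groups overlap. The difference between knockdown and own NT control, as the median over the 43 members, was 1.66 in first 42-2, 1.43 in 6-3, 1.23 in 13-2, 0.83 in 6-2 and 0.44 in G45-2. It was 0.068 in second 42-2, -0.23 in second 42-3 and -0.77 in first 42-3. Over the 8 sets the mean was 0.58 ± 0.86 (SD, n = 8), with 6 of 8 sets above 0. In bulk RNA, a change in the number of cells in S phase and a change in RNA of these genes per cell cannot be told apart.

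**Figure D1:**
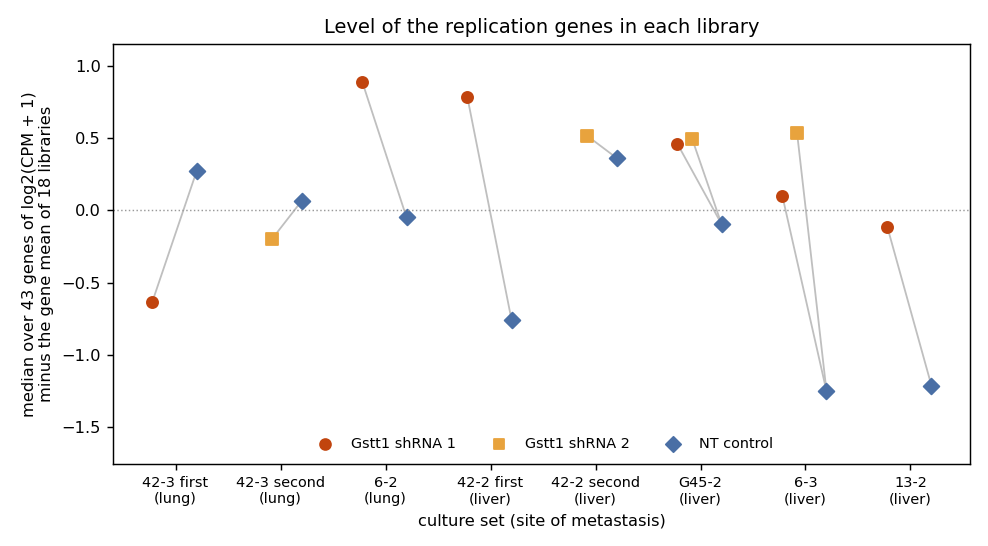
Level of the replication genes in each of the 18 libraries, as the median over 43 genes of log2(CPM + 1) less the gene mean over all libraries (vertical axis), by culture set (horizontal axis). Grey lines join each knockdown library to the NT control of its set, and the knockdown point is the higher one in 6 of 8 sets, the exceptions being both 42-3 sets.

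In 6 of 8 sets at least 36 of 43 members lay on one side of their control, and in both others members were mixed. In sets first 42-2 and 6-3 all 43 of 43 members were higher than in the NT control, where 51.8% of all tested genes were in each of these sets. In 13-2 the count was 41 of 43 (41% of all genes), in G45-2 40 of 43 (42.4%) and in 6-2 36 of 43 (50.7%). Second 42-2 had 26 of 43 members higher (46.6% of all genes), second 42-3 had 15 (46.7%) and first 42-3 had 3 (47.9%), the last 3 being Dut, Zfp367 and Ccne2. In all 5 of the sets 6-2, first 42-2, G45-2, 6-3 and 13-2 together, 32 of 43 members were higher, against 7.3% of all genes, but those 5 sets were picked after their values were seen and the count is a description. At least 7 of 8 sets agreed on higher for 8 members (6.65% of all genes), and Zfp367 was the 1 member higher in 8 of 8 sets (1.34% of all genes).

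**Figure D2:**
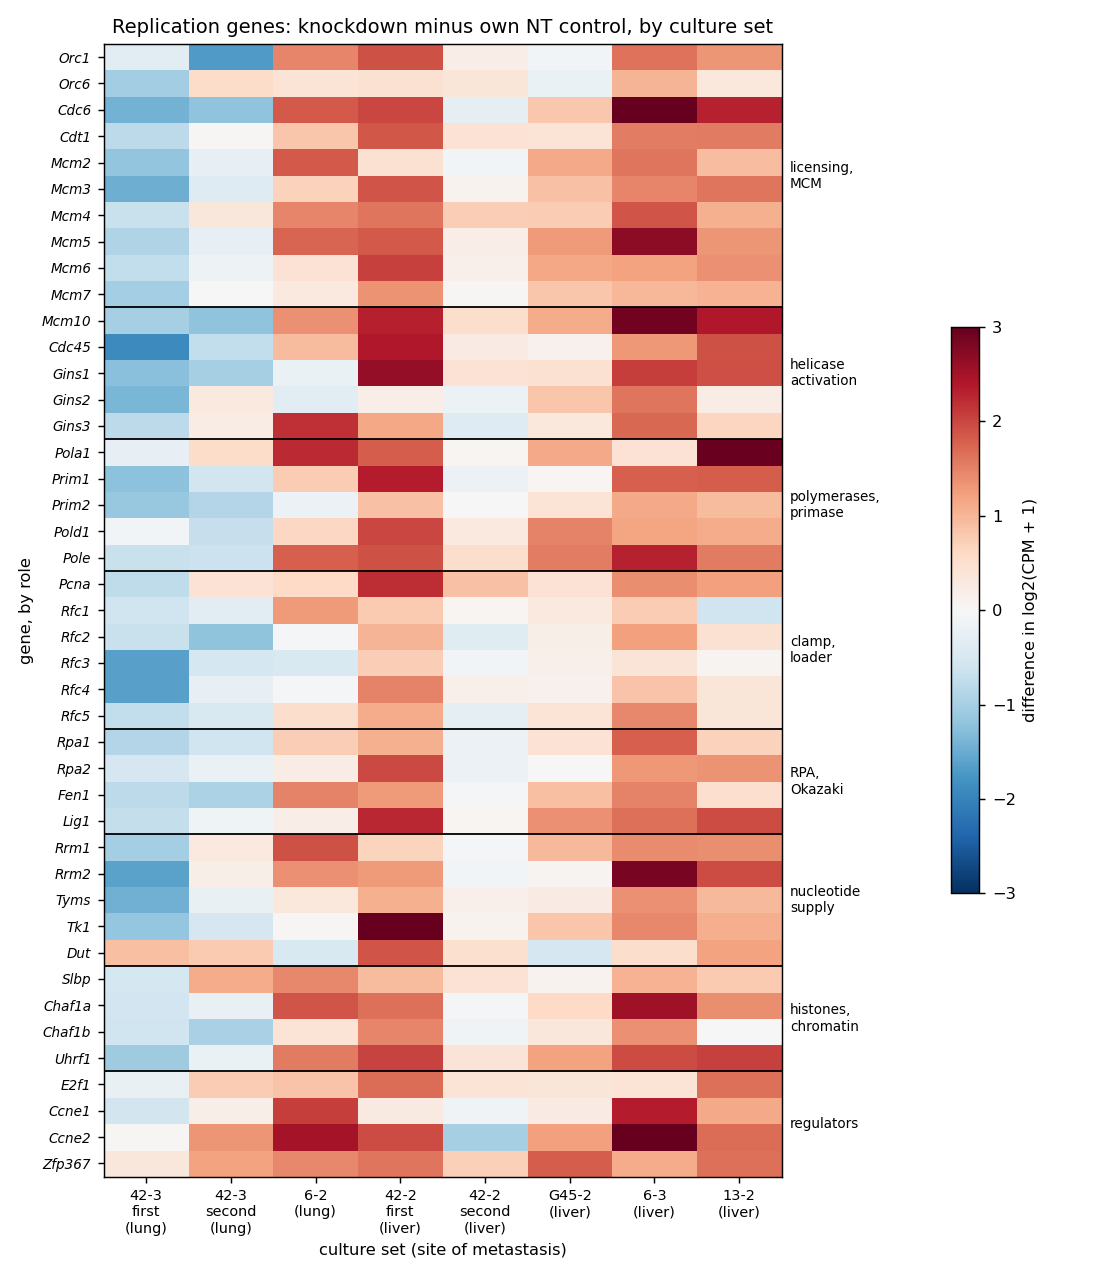
Difference in log2(CPM + 1) between knockdown and own NT control for each of the 43 genes (rows, by role) in each of the 8 culture sets (columns), red for higher and blue for lower in knockdown. Columns first 42-2 and 6-3 are red throughout, and column first 42-3 is blue except for 3 genes.

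The mean effect of both hairpins was tested with limma over all 12931 genes, with the culture set as a block, on log2(CPM + 1), where a difference of 1 is a doubling at levels well above 1 CPM. No member passed an adjusted p of 0.05 (Benjamini-Hochberg), and 5 of all genes did, or 0.0387%. At an unadjusted p of 0.05, 19 of 43 members were higher and none was lower, against 7.05% of all genes higher and 10.1% lower. The edgeR quasi-likelihood test on the recovered reads called 0 members and put 17 at an unadjusted p of 0.05. Shares of all genes at an unadjusted p are those of limma, here and below. Those of edgeR are not given, so its counts have no background beside them. The fitted difference was above 0 for 42 of 43 members, with a median of 0.65, where the median of all genes was -0.031. The spread between sets (SD 0.86 for the set medians) was larger than this median. The knockdown range of no member lay clear of the NT range, which it did upward for 0.101% and downward for 0.0851% of all genes. After removal of the 5 sets whose identity transcripts differ, 43 of 43 members had a fitted difference above 0 (47.5% of the 11723 genes tested there), with a median of 0.85, beside -0.021 for all genes. At an unadjusted p of 0.05, 17 were higher in that fit (5.68% of its genes), and 23 of 43 were higher in each of the 3 sets left (13.9% of all genes). In sets G45-2 and 6-3 alone, the 2 left at the limit of 1 CPM, the median was 1.11, beside -0.035 for all genes, 24 members were higher at an unadjusted p of 0.05 (7.16% of the 11334 genes tested there), and 40 members were higher in both (25.9% of all genes). Of these 2 sets, G45-2 still differed in 1 identity transcript, Kdm5d, and in 6-3 the NT and knockdown libraries carry different library codes. Gstt1 under shRNA 1 was at 54.5% of control in G45-2 and 75.4% in 6-3. The member median was 0.44 in G45-2 and 1.43 in 6-3. No member passed in either reduced fit (limma adjusted p of 0.306 or more with 3 sets and 0.176 or more with 2).

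The median over all 8 sets depended on line 6-3. Without that set it was 0.43, and without both lines whose NT and knockdown libraries carry different library codes (6-3 and 13-2) it was 0.33. By library code, the median of the mean difference was 0.60 over the 3 sets of code CFa8, 0.18 over the 2 of CFa11, 0.068 in the 1 set of CFa13 and 1.32 over the 2 of mixed code. The sets with mixed codes had the largest of these values, and in them code and knockdown cannot be told apart. By single set, however, the largest member median was 1.66 in first 42-2, of code CFa8, against 1.43 and 1.23 in the mixed sets. The CFa8 sets spread from -0.77 to 1.66.

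**Figure D3:**
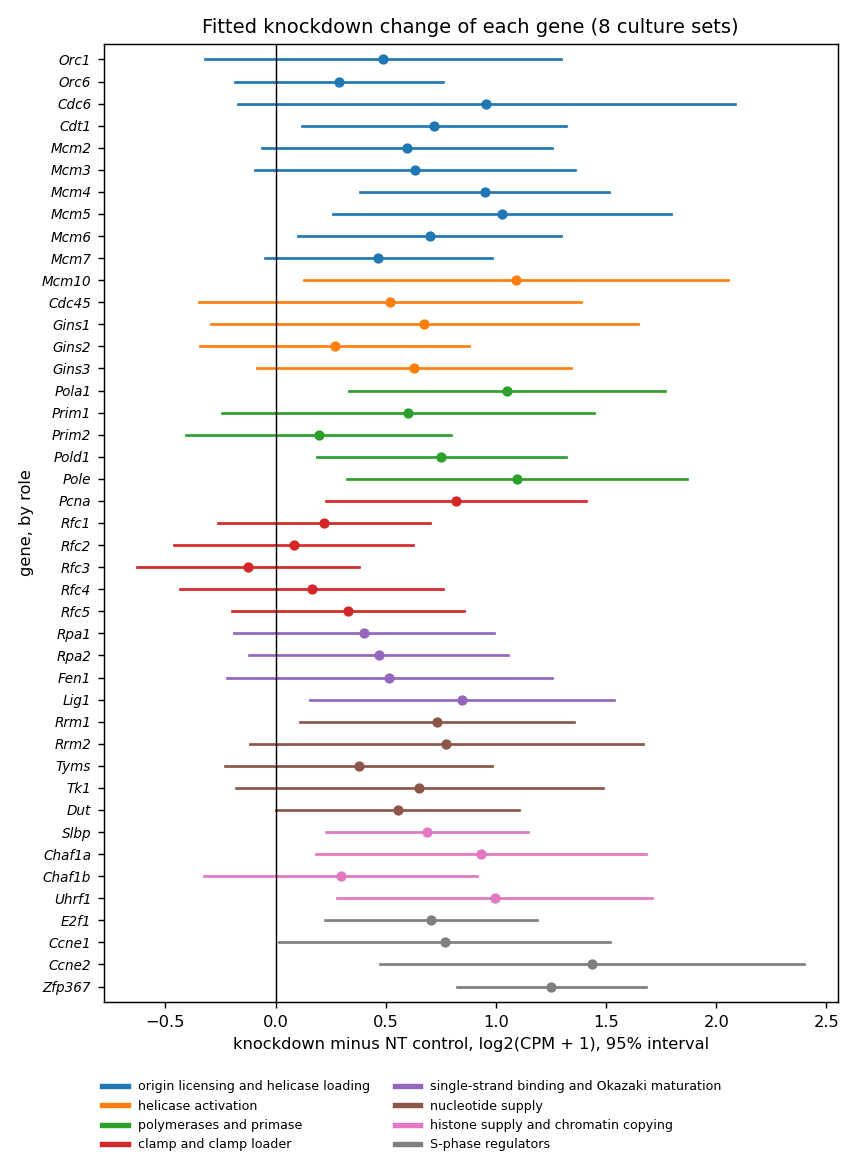
Fitted difference between knockdown and NT control in log2(CPM + 1) for each of the 43 genes (points) with its 95% interval (bars), by role. All points but that of Rfc3 lie to the right of 0, and the intervals of 19 genes leave out 0 before adjustment.

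The 10 genes of origin licensing and helicase loading all had fitted differences above 0 (0.29 to 1.03, median 0.67), and 4 of 10 were at an unadjusted p of 0.05. Beside this count, and those of the other roles below, stands the 7.05% of all genes that were higher at that p. Mcm4 ran from 195 to 488 CPM (median 326) in the 10 knockdown libraries, against 68.8 to 310.0 CPM (median 170.1) in the 8 NT controls. Mcm4 is a subunit of the Mcm2-7 ring, and it was higher in 7 of 8 sets, the exception being first 42-3 with 195 CPM in the shRNA 1 library and 310.0 CPM in the NT control. Its largest log2 difference was in 6-3 (1.88), with 201 and 326 CPM under shRNA 1 and shRNA 2, against 68.8 CPM under NT. The fitted log2(CPM + 1) difference of Mcm4 was 0.95 (SE 0.26, limma adjusted p = 0.125). Mcm5 ran from 108 to 437 CPM (median 261) in the 10 knockdown libraries, against 40.9 to 250.1 CPM (median 114) in the 8 NT controls. Mcm5, another subunit of the ring, was higher in 6 of 8 sets with a fitted log2(CPM + 1) difference of 1.03 (SE 0.35, limma adjusted p = 0.181). The groups overlap for both genes. As a block, the 6 subunits Mcm2 to Mcm7 had a median difference of 1.72 in first 42-2, 1.53 in 6-3, 1.19 in 13-2, 1.08 in 6-2, 1.01 in G45-2, 0.13 in second 42-2, -0.19 in second 42-3 and -0.96 in first 42-3. All 6 subunits were higher in 5 of these sets, 5 of 6 in second 42-2, 1 of 6 in second 42-3 and 0 of 6 in first 42-3. Cdt1, the partner of Cdc6 in loading the ring, was higher in 7 of 8 sets and had a fitted difference of 0.72, while Mcm2, Mcm3, Mcm6 and Mcm7 had 0.60, 0.63, 0.70 and 0.47. Orc6, the smallest subunit of the origin recognition complex, had 0.29 and ran from 37.7 to 157 CPM in knockdown libraries and from 43.4 to 122 CPM in NT controls. Orc1, the largest subunit of the origin recognition complex, was less uniform, with differences of 1.90 in first 42-2 and -1.70 in second 42-3. Cdc6, which recruits the ring to the origin complex, ranged from 3.10 in 6-3 to -1.43 in first 42-3.

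The 5 helicase activation genes also had fitted differences above 0 (0.27 to 1.09, median 0.63), with 1 of 5 at an unadjusted p of 0.05. Mcm10 ran from 25.01 to 121 CPM (median 93.9) in the 10 knockdown libraries, against 6.36 to 60.4 CPM (median 45.8) in the 8 NT controls. Mcm10, which helps the loaded helicase to start unwinding, was at 38.2 CPM under shRNA 1 in 13-2, against 6.36 CPM under NT, and at 25.7 CPM under shRNA 2 in second 42-3, against 60.2 CPM under NT. Both directions thus occur in single sets, and the fitted log2(CPM + 1) difference was 1.09 (SE 0.44, limma adjusted p = 0.237). Gins3 ran from 10.5 to 48.7 CPM (median 16.2) in the 10 knockdown libraries, against 5.18 to 18.7 CPM (median 10.3) in the 8 NT controls. Gins3 is a subunit of the GINS complex, and its fitted log2(CPM + 1) difference was 0.63 (SE 0.33, limma adjusted p = 0.346). For Cdc45, the partner of the Mcm ring in the working helicase, the set differences went from 2.41 in first 42-2 to -1.91 in first 42-3, and for the GINS subunit Gins1 from 2.63 to -1.26 in the same 2 sets. Gins2, another GINS subunit, had the smallest fitted difference of the 5, 0.27, and ran from 22.97 to 62.2 CPM in knockdown libraries and from 19.3 to 60.8 CPM in NT controls.

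Among polymerases and primase, 5 of 5 fitted differences were above 0 (0.20 to 1.10, median 0.75), 3 of 5 at an unadjusted p of 0.05. Pola1 ran from 27.9 to 181 CPM (median 84.9) in the 10 knockdown libraries, against 11.7 to 96.4 CPM (median 37.7) in the 8 NT controls. Pola1, the catalytic subunit of polymerase alpha, was higher in 7 of 8 sets. In 13-2 it was at 98.98 CPM under shRNA 1, against 11.7 CPM under NT, and in first 42-3, the exception, at 56.5 CPM under shRNA 1, against 66.9 CPM under NT. The fitted log2(CPM + 1) difference of Pola1 was 1.05 (SE 0.33, limma adjusted p = 0.161). Pole ran from 37.3 to 206 CPM (median 107) in the 10 knockdown libraries, against 19.5 to 79.3 CPM (median 47.98) in the 8 NT controls. Pole, the catalytic subunit of polymerase epsilon on the leading strand, was higher in 6 of 8 sets, with a fitted log2(CPM + 1) difference of 1.10 (SE 0.35, limma adjusted p = 0.169). Pold1, the catalytic subunit of polymerase delta, had a fitted difference of 0.75, and the primase subunits Prim1 and Prim2 had 0.60 and 0.20. Prim2 was at 27.7 to 53.3 CPM in knockdown libraries and at 14.7 to 62.3 CPM in NT controls, the knockdown range lying within that of the controls. The groups overlap for the other 4 as well.

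The clamp and its loader were the group with the smallest fitted differences among the 8 roles (median 0.19, 5 of 6 above 0), with Pcna apart from the loader subunits. Pcna ran from 30.4 to 135 CPM (median 67.9) in the 10 knockdown libraries, against 13.2 to 72.8 CPM (median 49.99) in the 8 NT controls. Pcna, the clamp itself, was higher in 7 of 8 sets, with a fitted log2(CPM + 1) difference of 0.82 (SE 0.27, limma adjusted p = 0.172). The 5 subunits of replication factor C, which opens the clamp and sets it on DNA, lay between -0.12 and 0.33, and none was at an unadjusted p of 0.05. Rfc1, the large subunit, had 0.22 and was higher in 5 of 8 sets, Rfc2 0.082 in 4 of 8 and Rfc4 0.16 in 5 of 8. Rfc5 ran from 50.2 to 135 CPM (median 96.1) in the 10 knockdown libraries, against 41.3 to 110.3 CPM (median 73.7) in the 8 NT controls, with a fitted log2(CPM + 1) difference of 0.33 (SE 0.24, limma adjusted p = 0.512). Rfc3 ran from 24.6 to 98.7 CPM (median 53.5) in the 10 knockdown libraries, against 33.8 to 84.9 CPM (median 65.3) in the 8 NT controls. Rfc3 was the single member with a fitted difference below 0, -0.12 (SE 0.23, limma adjusted p = 0.820) on the log2(CPM + 1) scale. It was at 24.6 CPM under shRNA 1 in first 42-3, against 77.7 CPM under NT, and was higher in 4 of 8 sets. Without first 42-3 its fitted difference was 0.054, so its sign rests on that set. It was 0.18 without the 5 sets whose identity transcripts differ.

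For single-strand binding and the joining of Okazaki fragments, 4 of 4 fitted differences were above 0 (0.40 to 0.85), 1 of 4 at an unadjusted p of 0.05. Lig1 ran from 63.3 to 196 CPM (median 125) in the 10 knockdown libraries, against 29.1 to 119 CPM (median 81.04) in the 8 NT controls. Lig1, the ligase that seals Okazaki fragments, was at 117 CPM under shRNA 1 in 13-2, against 29.1 CPM under NT, and its fitted log2(CPM + 1) difference was 0.85 (SE 0.32, limma adjusted p = 0.208). Rpa2 ran from 35.9 to 150.0 CPM (median 57.5) in the 10 knockdown libraries, against 21.9 to 91.6 CPM (median 49.9) in the 8 NT controls. Rpa2 is a subunit of the protein that coats single-stranded DNA, and its fitted log2(CPM + 1) difference was 0.47 (SE 0.27, limma adjusted p = 0.394), with an NT and a knockdown range that overlap. Rpa1, the large subunit of the same protein, had 0.40 and ran from 145 to 329 CPM in knockdown libraries and from 59.4 to 277 CPM in NT controls. Fen1, the flap nuclease, was at 1.57 to 8.40 CPM in knockdown libraries and 0.954 to 5.52 CPM in NT controls, the lowest CPM range of the 43, so counting error takes a larger share of its values, and its fitted difference was 0.52. How reads of overlapping genes were counted is not stated, so the Fen1 level itself is uncertain.

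Nucleotide supply genes had fitted differences of 0.38 to 0.78 (5 of 5 above 0, 2 at an unadjusted p of 0.05). Rrm1 ran from 214 to 705 CPM (median 389.6) in the 10 knockdown libraries, against 126 to 435 CPM (median 239.9) in the 8 NT controls. Rrm1, the large subunit of ribonucleotide reductase, was higher in 6 of 8 sets, with a fitted log2(CPM + 1) difference of 0.73 (SE 0.28, limma adjusted p = 0.222). Its partner Rrm2, with a fitted difference of 0.78, spread more widely, from 2.84 in 6-3 to -1.62 in first 42-3. Dut ran from 80.8 to 228 CPM (median 149.8) in the 10 knockdown libraries, against 61.04 to 210.0 CPM (median 106) in the 8 NT controls. Dut, which removes dUTP so that uracil stays out of DNA, had a pattern of its own. It was at 188 CPM under shRNA 1 in first 42-3, against 100.3 CPM under NT, the set where 3 of 43 members were higher, and at 80.8 CPM under shRNA 1 in 6-2, against 112 CPM under NT, where 36 members were higher. In G45-2 it was at 138 CPM under shRNA 1 and 159 CPM under shRNA 2, against 210.0 CPM under NT. The fitted log2(CPM + 1) difference of Dut was 0.55 (SE 0.25, limma adjusted p = 0.290). Tk1, the salvage kinase for thymidine, had the largest log2 difference of this group in first 42-2 (3.18), at 177 CPM under shRNA 1, against 18.5 CPM under NT, and a fitted difference of 0.65. Tyms, which makes thymidylate, had 0.38 and was higher in 6 of 8 sets.

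The 4 genes of histone supply and chromatin copying had fitted differences of 0.30 to 0.99, 3 of 4 at an unadjusted p of 0.05. Slbp ran from 66.4 to 198 CPM (median 126) in the 10 knockdown libraries, against 38.8 to 136 CPM (median 75.2) in the 8 NT controls. Slbp, which binds the stem-loop that ends replication-dependent histone messages, was higher in 7 of 8 sets, second 42-3 included, where it was at 117 CPM under shRNA 2, against 52.9 CPM under NT. The fitted log2(CPM + 1) difference of Slbp was 0.69 (SE 0.21, limma adjusted p = 0.157). Uhrf1 ran from 65.6 to 236 CPM (median 175) in the 10 knockdown libraries, against 37.8 to 137 CPM (median 87.4) in the 8 NT controls. Uhrf1, which brings the maintenance methyltransferase to newly copied DNA, was higher in 6 of 8 sets with a fitted log2(CPM + 1) difference of 0.99 (SE 0.33, limma adjusted p = 0.172). The chromatin assembly factor subunits Chaf1a and Chaf1b had 0.93 and 0.30, with Chaf1a higher in 5 and Chaf1b in 4 of 8 sets.

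The regulators had the largest median of the 8 roles, 1.01 (4 of 4 above 0, all 4 at an unadjusted p of 0.05), and none passed the adjusted threshold. Zfp367 encodes a zinc finger transcription factor and is itself named among E2F targets. Zfp367 ran from 38.6 to 146 CPM (median 77.4) in the 10 knockdown libraries, against 19.7 to 54.5 CPM (median 33.2) in the 8 NT controls, and the groups overlap. It was at 51.6 CPM under shRNA 1, against 40.4 CPM under NT, in first 42-3, and at 123 CPM under shRNA 1, against 44.3 CPM under NT, in 6-2. The smaller gap is in first 42-3, the set where nearly all other members were lower. It was at 82.3 CPM under shRNA 1, against 26.5 CPM under NT, in first 42-2, and at 64.7 CPM under shRNA 1, against 19.7 CPM under NT, in 13-2. Under shRNA 2 it was at 72.5 CPM, against 30.8 CPM under NT, in second 42-3, and at 89.97 CPM, against 54.5 CPM under NT, in second 42-2. In G45-2 it was at 146 and 114 CPM under shRNA 1 and shRNA 2, against 35.7 CPM under NT, and in 6-3 at 38.6 and 55.01 CPM, against 20.9 CPM under NT. All 10 knockdown libraries lay above the control of their own set. The fitted log2(CPM + 1) difference of 1.25 (SE 0.20, limma adjusted p = 0.0512) missed the threshold narrowly. It was past it with the cell line as the block (limma adjusted p = 0.0232), without any block (0.0453) and without first 42-3 (0.0341), and had an edgeR adjusted p of 0.0868. Ccne2 ran from 15.6 to 109 CPM (median 47.1) in the 10 knockdown libraries, against 2.93 to 32.8 CPM (median 18.2) in the 8 NT controls. Ccne2 is a cyclin E, the partner of the kinase Cdk2 at S-phase entry, and was higher in 7 of 8 sets, the exception being second 42-2. The fitted log2(CPM + 1) difference of Ccne2 was 1.44 (SE 0.44, limma adjusted p = 0.157). E2f1, the activator of many of these genes, had 0.71 and was higher in 7 of 8 sets, and the other cyclin E gene, Ccne1, had 0.77 and was higher in 6.

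**Figure D4:**
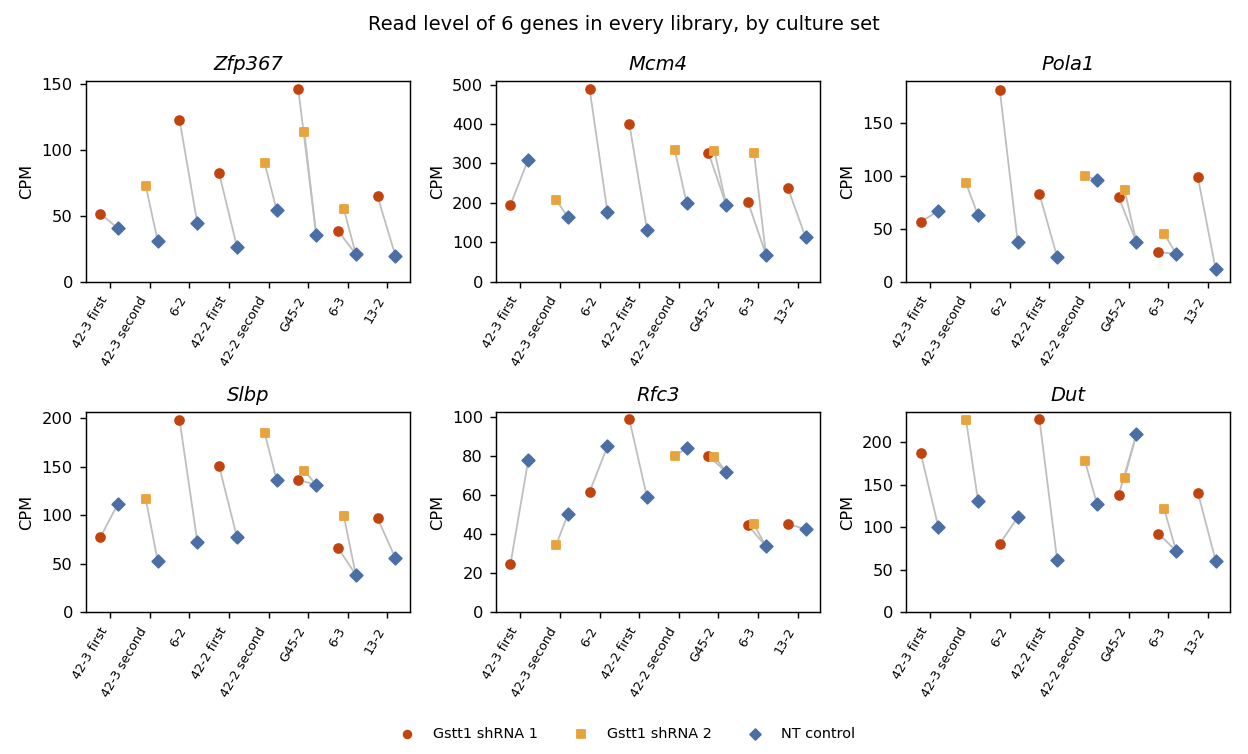
CPM of Zfp367, Mcm4, Pola1, Slbp, Rfc3 and Dut in each of the 18 libraries, by culture set, with lines from each knockdown library to the NT control of its set. For Zfp367 every knockdown point lies above its control, while Rfc3 and Dut have lines of both slopes.

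Promoters are shown because many members stood high or low in the same libraries and are known as E2F targets. In RefSeq windows of 250 bases before to 50 bases after the start (GRCm38.p6), 36 of 43 members had a window. The search was for TTTCCCGC, TTTGGCGC, TTTCGCGC and TTTGCCGC on both strands, overlapping matches counted. At least 1 match was found for 14 of 36 members, or 38.9%, against 2.60% of the 27025 genes in the table. CCAAT, on both strands, was found for 63.9% of members and 41.1% of all genes, and TTTGAA or TTCGAA, the letters of the cell cycle homology region of mitotic promoters, for 19.4% and 21.7%. The median fitted difference was 0.74 for the 14 members with the E2F letters and 0.58 for the 22 without, given as a description. The stretches below run from 190 bases before to 10 bases after the start, 5′ to 3′ on the gene's strand, with E2F letters in capitals. They are the member nearest the threshold, the ring subunits Mcm5 and Mcm6, the polymerase gene Pola1 and the 1 member with a fitted difference below 0, Rfc3, whose promoter holds the letters too. Each printed stretch holds the letters, and none of the 22 members without them is shown. The ring subunits Mcm3 and Mcm7 also have matches, and Zfp367 has another window with a match, not shown. Zfp367 lies at chr13:64153190-64153389, minus strand, Mcm5 at chr8:75109319-75109518, plus strand, Mcm6 at chr1:128359696-128359895, minus strand, Pola1 at chrX:93632146-93632345, minus strand and Rfc3 at chr5:151651199-151651398, minus strand.
Zfp367: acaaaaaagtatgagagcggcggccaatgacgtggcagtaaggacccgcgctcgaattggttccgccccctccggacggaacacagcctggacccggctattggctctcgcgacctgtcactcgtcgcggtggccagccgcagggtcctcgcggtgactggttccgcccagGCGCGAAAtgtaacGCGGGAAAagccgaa
Mcm5: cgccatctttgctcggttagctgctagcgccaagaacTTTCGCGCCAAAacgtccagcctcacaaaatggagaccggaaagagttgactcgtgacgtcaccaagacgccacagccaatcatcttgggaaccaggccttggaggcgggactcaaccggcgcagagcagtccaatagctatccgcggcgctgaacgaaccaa
Mcm6: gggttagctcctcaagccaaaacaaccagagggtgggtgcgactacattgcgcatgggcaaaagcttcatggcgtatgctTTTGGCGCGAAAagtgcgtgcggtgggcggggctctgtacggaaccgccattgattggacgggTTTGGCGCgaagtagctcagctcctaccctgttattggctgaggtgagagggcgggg
Pola1: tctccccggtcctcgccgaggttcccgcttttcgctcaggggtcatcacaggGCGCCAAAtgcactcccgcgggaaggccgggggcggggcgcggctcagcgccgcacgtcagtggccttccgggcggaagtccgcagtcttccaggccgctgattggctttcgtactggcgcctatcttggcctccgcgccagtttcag
Rfc3: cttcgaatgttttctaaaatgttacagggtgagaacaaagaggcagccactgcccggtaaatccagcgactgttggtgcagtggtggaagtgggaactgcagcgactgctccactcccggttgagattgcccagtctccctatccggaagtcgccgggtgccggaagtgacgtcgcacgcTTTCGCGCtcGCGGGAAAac
A match is a run of letters and was not tested for binding. In Mcm5 and Mcm6 matches on the 2 strands overlap in 1 run of 12 capitals.

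Each hairpin was also compared with the NT controls of its own sets, with all 8 controls in the fit. Under shRNA 1, 42 of 43 members had fitted differences above 0, with a median of 0.71. None passed the adjusted threshold in limma, as for all genes (0% called), and the median of all genes was -0.012. At an unadjusted p of 0.05, 17 were higher (7.26% of all genes) and none lower (8.8%), with 16 higher by edgeR, which called 0. The members of smallest p were Zfp367 with a fitted log2(CPM + 1) difference of 1.28 (SE 0.23, limma adjusted p = 0.110), Pola1 with 1.23 (SE 0.38, limma adjusted p = 0.197) and Uhrf1 with 1.17 (SE 0.38, limma adjusted p = 0.208). Under shRNA 2, 41 of 43 were above 0 with a median of 0.58, beside -0.049 for all genes, and none passed in limma (0% of all genes called). At an unadjusted p of 0.05, 6 were higher (2.15% of all genes) and none lower (4.3%), with 7 higher by edgeR, which called 0. There the members of smallest p were Zfp367 with 1.23 (SE 0.27, limma adjusted p = 0.646), Mcm4 with 1.02 (SE 0.36, limma adjusted p = 0.715) and Slbp with 0.80 (SE 0.29, limma adjusted p = 0.715). Without lines 6-3 and 13-2 the shRNA 2 median was 0.15.

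The difference between the hairpins was tested in the same fit. For shRNA 2 minus shRNA 1 the median over members was -0.14, beside -0.036 for all genes, and 11 of 43 were above 0. The sign of this median was not stable, since it was 0.027 without second 42-3, 0.0086 without second 42-2, 0.039 without the block, 0.027 with the cell line as block and 0.22 in sets G45-2 and 6-3 alone, and -0.45 without set 6-3. None passed in limma or edgeR (0% of all genes called in limma), and none reached an unadjusted p of 0.05 in either tool (0.217% of all genes higher and 0.278% lower in limma). Orc1 had -0.69 (SE 0.58, limma adjusted p = 0.9999) with a 95% interval of -1.96 to 0.58, Rpa2 -0.38 (SE 0.42, limma adjusted p = 0.9999) with an interval of -1.30 to 0.55, and Orc6 0.34 (SE 0.34, limma adjusted p = 0.9999) with an interval of -0.40 to 1.09, so effects of either sign and of some size are within the error. In the sets with both hairpins, members differed by a median of -0.048 in G45-2 and 0.39 in 6-3 for shRNA 2 minus shRNA 1. The Gstt1 level left by each hairpin there was unequal. In 6-3 the member median against the NT control was 1.32 under shRNA 1, where Gstt1 was at 75.4% of control, and 1.64 under shRNA 2, where it was at 0.982%. In G45-2 it was 0.47 under shRNA 1 with Gstt1 at 54.5% and 0.49 under shRNA 2 with Gstt1 at 11.8%. All 43 members were higher under both hairpins in 6-3, and both hairpins there share 1 NT control.

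Lung and liver lines were set apart by an interaction term, the knockdown effect in lung sets minus that in liver sets. Its median over members was -1.11 and 1 of 43 values was above 0 (Slbp, 0.040), where the median of all genes was 0.017. No member passed in limma (0.186% of all genes called) or edgeR, and 19 of 43 were lower in lung at an unadjusted p of 0.05 (9.41% of all genes) and none higher (8.32%), with 20 lower by edgeR. The members of smallest p were Lig1 with an interaction of -1.72 (SE 0.43, limma adjusted p = 0.109), Gins1 with -2.31 (SE 0.64, limma adjusted p = 0.125) and Prim2 with -1.42 (SE 0.39, limma adjusted p = 0.125). Gins1 had set differences of -1.26, -1.004 and -0.21 in the lung sets and 2.63, 0.43, 0.46, 2.07 and 1.93 in the liver sets. For Lig1 they were -0.72, -0.13 and 0.20 in the lung sets and 2.25, 0.061, 1.37, 1.66 and 1.97 in the liver sets, second 42-2 being within the lung range. The regulators differed least between sites (median -0.33), and the helicase activation genes most (median -1.74). Of the 3 lung sets 2 are of line 42-3, and the third, 6-2, had a member median of 0.83, within the liver range of 0.068 to 1.66. In the same term the 5 fibroblast markers tested had a median of 3.19 (5 of 5 above 0) and the ductal epithelial markers -1.61 (7 of 8 below 0), and their part in the members' values was not tested. All 3 lung sets differ in identity transcripts, so the interaction could not be fitted without the differing sets. The liver sets first 42-2 and 13-2 differ too, with member medians of 1.66 and 1.23. Those of the lung sets first 42-3, second 42-3 and 6-2 were -0.77, -0.23 and 0.83. At 10 CPM these 2 liver sets differ in Cdkn2a and Cdkn2b alone, and each lung set in Uty, Kdm5d, Ddx3y and Eif2s3y. Site and a difference in all of these Y-linked genes at 10 CPM cannot be told apart. Liver sets had Y-linked differences too, G45-2 in Kdm5d at 10 CPM. At 1 CPM first 42-2 differed in Ddx3y and Uty, and second 42-2 in Uty, Kdm5d, Ddx3y and Eif2s3y.

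**Figure D5:**
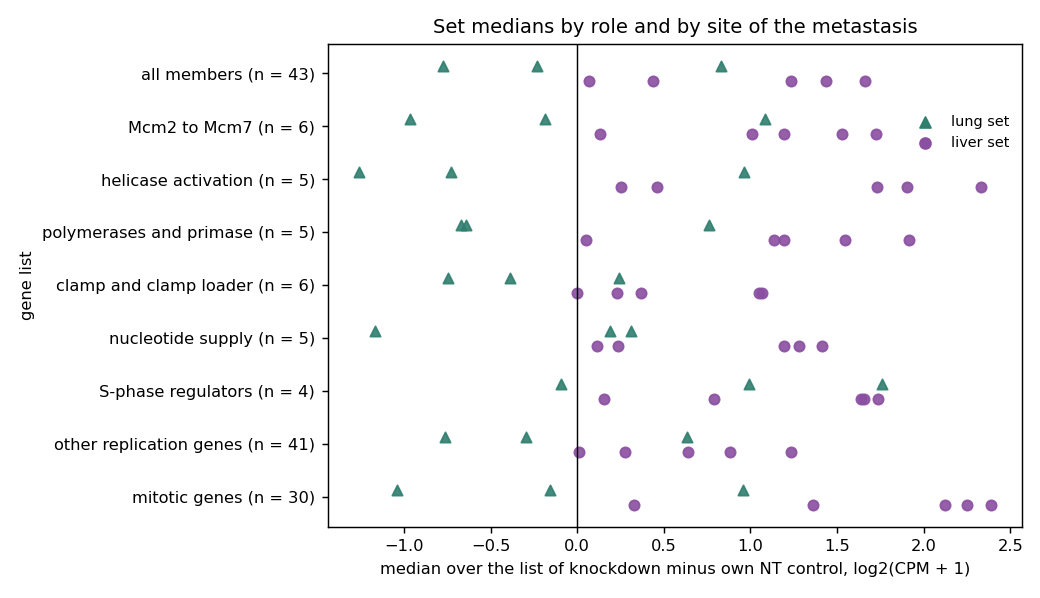
Median over a gene list of knockdown minus own NT control in log2(CPM + 1) (horizontal axis) for each culture set, lung sets as triangles and liver sets as circles, by list (vertical axis). In each list the lowest point is a lung set, that of first 42-3, and for all members, helicase activation and mitotic genes the 3 highest points are liver sets.

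In the NT controls alone, members stood higher in lung lines than in liver lines without passing the test. The library level was -0.048, 0.064 and 0.27 in the 3 lung NT controls and -1.25 to 0.36 (median -0.76) in the 5 liver NT controls, where second 42-2, at 0.36, was the highest of all 8. On line means (2 lung lines, 4 liver lines) the median difference over members was 0.75 with 41 of 43 above 0, and the median of all genes was -0.050. The mean for line 42-2 joins 2 NT controls of unlike level, -0.76 in the first set and 0.36 in the second. None passed in limma (0.0309% of all genes called) or edgeR, and 11 were higher in lung at an unadjusted p of 0.05 (6.43% of all genes) and none lower (6.65%), with 7 higher by edgeR. Gins1 was at 24.9, 28.4 and 22.7 CPM in the lung controls and at 5.78, 18.5, 11.3, 6.68 and 4.05 CPM in the liver controls. These values do not overlap, but the share of all genes without overlap between these groups was not counted. The fitted log2(CPM + 1) difference of Gins1 was 1.57 (SE 0.46, limma adjusted p = 0.263). Mcm6, a subunit of the ring, had 0.92 (SE 0.31, limma adjusted p = 0.305) and Tk1 1.03 (SE 0.35, limma adjusted p = 0.311). After knockdown the level was -0.63, -0.20 and 0.89 in the lung lines and -0.12 to 0.78 (median 0.50) in the liver lines. The NT controls enter both this comparison and the knockdown differences, so that a low control gives a high knockdown difference in the same set. The 3 lowest NT levels, in 6-3, 13-2 and first 42-2, belong to the 3 sets with the largest member medians.

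Members followed one another across libraries to different degrees. Over the 18 libraries, which share lines and sets, the Pearson correlation of a member with the median of the other members was 0.43 to 0.96 (median 0.84), above 0.8 for 30 of 43. Dut had the lowest value, 0.43, and Rfc3 the next, 0.62. Rfc1, Gins2 and Orc6 followed, at 0.68 each. These correlations are a description with no test.

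Other genes of the pathway were read from a fixed list of 43, of which 41 were tested. Their fitted knockdown differences had a median of 0.32, with 33 above 0 and 8 below, none past the threshold, 10 higher and 1 lower at an unadjusted p of 0.05. At that p, 7.05% of all genes were higher and 10.1% lower, the shares to set beside each list in this paragraph. Topbp1, which activates Cdc45 loading and the kinase Atr, had a fitted log2(CPM + 1) difference of 1.01 (SE 0.26, limma adjusted p = 0.116). Dnmt1, the maintenance methyltransferase, had 1.22 (SE 0.34, limma adjusted p = 0.130) and Wdhd1, which ties polymerase alpha to the helicase, 1.10 (SE 0.39, limma adjusted p = 0.194). By set the list median was 1.23 in first 42-2, 0.88 in 6-3 and -0.76 in first 42-3. Of 9 S-phase checkpoint genes tested of 10, 8 were above 0 and none passed, 3 being higher at an unadjusted p of 0.05. The kinase Wee1 had 1.13 (SE 0.29, limma adjusted p = 0.119), Chek1 1.03 (SE 0.38, limma adjusted p = 0.210) and Atr 0.58 (SE 0.24, limma adjusted p = 0.251). Among 12 E2F and RB family genes beside E2f1, 10 were above 0, none passed and 5 were higher at an unadjusted p of 0.05. The RB relative Rbl1 had 1.06 (SE 0.26, limma adjusted p = 0.111), and the repressor E2Fs E2f7 and E2f8 had 1.80 (SE 0.47, limma adjusted p = 0.119) and 1.70 (SE 0.51, limma adjusted p = 0.148). In 13-2, E2f7 was at 51.1 CPM under shRNA 1, against 2.82 CPM under NT.

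Mitotic genes were high in the same sets, by larger differences in most of them. All 30 of 30 had fitted knockdown differences above 0 (0.65 to 1.64, median 1.02), and none passed the adjusted threshold. At an unadjusted p of 0.05, 25 of 30 were higher, against 7.05% of all genes. By set their median was 2.39 in 13-2, 2.25 in first 42-2, 2.12 in 6-3, 1.36 in G45-2, 0.95 in 6-2, 0.33 in second 42-2, -0.16 in second 42-3 and -1.04 in first 42-3. Ckap2, a spindle protein, had a fitted log2(CPM + 1) difference of 1.22 (SE 0.20, limma adjusted p = 0.0552), the proliferation marker Mki67 1.60 (SE 0.28, limma adjusted p = 0.0692) and the cytokinesis protein Anln 1.64 (SE 0.36, limma adjusted p = 0.0944). In first 42-3, Mki67 was at 107 CPM under shRNA 1, against 98.8 CPM under NT, while 3 of 43 replication genes and 2 of 30 mitotic genes were higher there. In second 42-3 it was at 232 CPM under shRNA 2, against 119 CPM under NT, with 15 of 43 replication genes and 14 of 30 mitotic genes higher. Mki67 was thus among the few mitotic genes that did not go with the rest in first 42-3.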

How the data were processed

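The authors deposited 1 table of CPM for the 18 RNA-seq libraries, made by TruSeq from 1.3 µg of RNA, per the labels' protocols. The submitters' processing notes name mm9 as the build, with aligner, counter, strand setting and gene models not given in the sources used here. CPM values were whole multiples of 1 read (100% within 0.01 reads), which gave the depths. Depth sets counting error only. No libraries agreed within sampling noise (smallest chi-square per degree of freedom 33.0).

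The tests used limma 3.58.1 in R 4.3.3 (two-sided, with trend) on log2(CPM + 1) of genes that reached 1 CPM in 4 or more libraries. The model had a term for each culture set (the block), terms for shRNA 1 and shRNA 2 and the knockdown effect as their mean. This scale understates changes of low genes. P-values were adjusted over all genes (Benjamini-Hochberg, threshold 0.05). Site was tested by adding a knockdown by site interaction and, in NT controls, on line means. Pairing comes from the cell line in the labels. As a check, deviations of a knockdown library and its control from their group means correlated at -0.36 to 0.70 (median 0.02), 4 of 10 above 0.1. In 6-2, digits in the title codes run opposite to those of first 42-3 and first 42-2. Its labels were used as given. Named are, of each role, the 2 members of smallest p, any member of opposite sign, and 3 per other comparison or list. Others named (such as Orc1, Cdc6, Cdc45, Rrm2, Tk1, Fen1 and the remaining members) were chosen after their values were seen. The members, lists, tests and limits were chosen with earlier results of these data known. Alternatives were quantile normalization, median-ratio rescaling, no filter, a filter of 5 CPM, pseudocounts of 0.5 and 2, edgeR 4.0.16 (quasi-likelihood test) on the recovered reads, other blocks, and sets or lines left out. The fits were tested on simulated data. Python 3.11.15, numpy 2.4.6, pandas 2.3.3, scipy 1.17.1 and matplotlib 3.10.9 made tables, plots and promoter searches.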

Additional observations from a re-analysis of the deposited data

Results flagged for a closer look

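In 5 of 71 groups of 4 to 10 libraries examined, 1 library lay far from the others by Dixon's ratio, and chance alone gives this in about 1 in 20. Among the 4 shRNA 2 libraries, Mcm4 was at 208 CPM in second 42-3, below the other 3. Among the 6 shRNA 1 libraries, Gins3 was at 48.7 CPM in 6-2 and Rpa2 at 150.0 CPM in first 42-2, each above the other 5. Among the 8 NT controls, Dut was at 210.0 CPM in G45-2, above the other 7. The level over all members, -0.20 in the shRNA 2 library of second 42-3, was below the other 3 shRNA 2 libraries.

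For 3 members every lung set was lower than its NT control and every liver set higher. The share of all tested genes with this pattern was not counted, so the 3 are a description. The mean difference of lung sets minus that of liver sets was -2.33 for Gins1, -1.40 for Prim2 and -1.24 for Rfc4. The interaction test of the difference gave, by limma with Benjamini-Hochberg adjustment, -2.31 (SE 0.64, limma adjusted p = 0.125) for Gins1, -1.42 (SE 0.39, limma adjusted p = 0.125) for Prim2 and -1.23 (SE 0.45, limma adjusted p = 0.210) for Rfc4, none past the threshold. The 3 were picked by the same set differences that this test uses, so its values give no separate support. In second 42-2 the Prim2 difference was 0.0014, barely above 0.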

How the results depend on the processing

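Over 27 alternatives, 616 values of 32 single-gene results were recomputed, and 609 kept their direction and their side of the threshold. The count of members past the knockdown threshold was 1 (Zfp367, limma adjusted p = 0.0453) with no replicate block, 1 (0.0232) with the cell line as block, and 0 to 1 when each set was left out in turn, the 1 being without first 42-3 (0.0341). Under every other alternative run it was 0, and in the other 5 comparisons it was 0 under every alternative run. The replicate block changed no other call. The sign of Rfc3 turned, to 0.18 without the 5 sets that differ in identity transcripts, 0.27 without the 6 that differ at 1 CPM, and -0.23 to 0.054 over leaving out each set. Orc1 for shRNA 2 minus shRNA 1 turned to 0.010 without the 6 sets. The knockdown median over members was 0.43 to 0.83 over leaving out each set, lowest without 6-3, and 0.33 without lines 6-3 and 13-2. The hairpin difference had a median of -0.45 to 0.027 over leaving out each set, and 0.22 without the 6 sets. The causes were not tested, and fewer samples enter each reduced fit. Depth limits Fen1 most among the members.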

Other observations

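Genes that brake or drive G1 did not share one direction. Of 7 CDK inhibitor genes, 4 had fitted knockdown differences above 0 and 3 below, none past the threshold, with 3 in each direction at an unadjusted p of 0.05. Among all genes, 7.05% were higher and 10.1% lower at that p. Cdkn2c, an inhibitor of Cdk4 and Cdk6, had a fitted log2(CPM + 1) difference of 1.35 (SE 0.26, limma adjusted p = 0.0820) and was at 54.5 and 59.04 CPM under shRNA 1 and shRNA 2 in G45-2, against 14.3 CPM under NT. Cdkn2b and Cdkn2a, which are also 2 of the 7 identity transcripts, had -3.55 (SE 0.85, limma adjusted p = 0.109) and -3.09 (SE 0.78, limma adjusted p = 0.112). Of the 6 identity transcripts tested, none was above 0 and all 6 were lower at an unadjusted p of 0.05. Cdkn1a, the p53-responsive inhibitor, had 1.57 (SE 0.72, limma adjusted p = 0.290). In first 42-3 it was at 336 CPM under shRNA 1, against 44.6 CPM under NT, in second 42-3 at 415 CPM under shRNA 2, against 20.01 CPM under NT, and in 13-2 at 628 CPM under shRNA 1, against 16.4 CPM under NT. Of the 43 replication genes, 3 were higher than their control in first 42-3, 15 in second 42-3 and 41 in 13-2. In 6-3 it was at 27.4 and 67.4 CPM under shRNA 1 and shRNA 2, against 135 CPM under NT.

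Of 9 genes of G1 cyclins, their kinases and regulators such as Myc, 7 were above 0 and 2 below, none past the threshold. At an unadjusted p of 0.05, 1 was higher (7.05% of all genes) and 2 were lower (10.1%). The D-type cyclin Ccnd2 had -0.77 (SE 0.31, limma adjusted p = 0.228), Myc -0.70 (SE 0.30, limma adjusted p = 0.259) and the kinase Cdk6 0.55 (SE 0.24, limma adjusted p = 0.278). The ductal epithelial markers had a median fitted difference of -1.35, with 7 of 8 below 0 and none past the threshold, and the 5 fibroblast markers tested had -0.068. Their part in the replication gene differences was not tested.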
